A study of Mus musculus with 13 samples.

Results

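Male primordial germ cells that carry the HxD allele of Tet1 were compared with wild-type (WT) germ cells by RNA sequencing, over every gene with enough counts for a test. The comparison rests on 6 of the 12 libraries with counts, 3 labelled HxD and 3 labelled WT, and the groups were taken from the genotype given in the labels. Another 6 libraries, 3 of a Tet1 knockout (KO) and 3 of the allele V, entered the fit to steady the estimate of spread between libraries. The labels list 13 samples, and a 4th WT sample was not analysed here. All cells came from mouse embryos at E14.5 and carried an Oct4-GFP reporter, by which they were sorted, so the controls share the reporter with the mutants. Each library was made from 5000 cells with oligo-dT bead capture, which favours polyadenylated RNA. The labels name neither strain, litter nor pool, and they do not say whether replicates are separate embryos, so each p-value speaks of the spread between these libraries, which may be technical.

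TET1 is a dioxygenase that oxidises 5-methylcytosine in DNA, and it can also hold other chromatin proteins at its binding sites without using that activity. The HxD allele is known to give a TET1 protein without catalytic activity, while the V protein is known to stop at 5-hydroxymethylcytosine, so HxD against WT asks what the activity alone contributes. In the embryo, primordial germ cells lose most of their DNA methylation, and a set of germline genes with CpG-rich promoters, silenced by methylation in somatic cells, becomes active as that happens. In a male embryo these cells then stop dividing, turn down pluripotency genes and turn on genes of the piRNA pathway, which guards the genome against transposons.

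The Tet1 transcript is reported before any other, since it checks the labels. Its level was 607, 735 and 536 CPM (each count relative to the library total, as edgeR's cpm gives it after TMM scaling, a correction for library composition) in HxD replicates 1, 2 and 3, and 596, 589 and 639 CPM in the WT libraries. The HxD and WT values overlapped, and edgeR put the log2 difference at 0.04 (adjusted p = 1), with a 95% interval from -0.31 to 0.39. Its sign turned to -0.09 without HxD replicate 2. HxD cells therefore held the transcript at a level that could not be told from WT at this precision, whereas KO averaged 213 CPM. A change of a few codons would leave no trace in counts per gene, so these levels do not test the HxD label itself.

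Totals in the 6 libraries ran from 15037595 counts in HxD replicate 3 to 29641963 in HxD replicate 1. The HxD libraries detected 13376, 12231 and 12520 genes, against 14780, 14843 and 11529 in WT. WT replicate 3 stood apart by its gaps: 104 of the genes averaging at least 8 CPM had no count in it, against 0 to 36 in the other 5. Spearman correlations of counts were 0.928 to 0.963 within a genotype and 0.912 to 0.956 between HxD and WT. Germ cell markers were abundant in all 6 libraries, with summed levels of 3928 to 5039 CPM in HxD and 5460 to 6021 CPM in WT (exact permutation test, two-sided, p = 0.1, the smallest that 3 against 3 allows, and 0.771 after Benjamini-Hochberg adjustment over 9 marker lists). Of the 15 tested germ cell markers, Mael and Dazl were called lower, and Dazl alone averaged 793 CPM in HxD and 1754 CPM in WT. At an unadjusted p under 0.05 in edgeR, 5 of the 15 were lower (33.3%, beside 4.82% of all genes tested). Besides Mael and Dazl these were Ddx4, Stk31 and Rnf17. At that p 2 were higher (13.3%, beside 3.42%), Pou5f1 and Tfap2c, which stood higher in every HxD library. Dppa3 and Sall4 overlapped. Markers of other gonadal cells were scarce by comparison, at most 181 CPM summed for Sertoli cells (reached in WT replicate 3, with 18.3 to 61.5 CPM in the other 5 libraries), 28.8 CPM for Leydig cells and 50.7 CPM for interstitial cells. Sox9, the Foxl2 gene of granulosa cells and the leukocyte gene Ptprc had no count in any of the 6. Endothelial markers summed to 195.5 to 302.7 CPM in HxD and 202 to 259 CPM in WT.

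In all, 5 genes passed the adjusted threshold of 0.05 in edgeR: Mael, Dazl and Pmaip1 were lower in HxD, and Ulk1 and Mkx were higher. They are 0.034% of the 14702 genes tested. In the plot of every tested gene by mean level they lie at the edge of a wide cloud, since the biological coefficient of variation, a relative spread between libraries, was 0.932. At an unadjusted p under 0.05 there were 708 genes lower in HxD (4.82%) and 503 higher (3.42%), where chance alone gives 735 in both directions together. With a stricter filter on low counts, which left 9247 genes, 417 were lower and 464 higher, so the excess of lower genes was not kept. DESeq2 called far more, 114 lower and 85 higher, and all 5 edgeR calls were among them. Of its 199 calls, 62 had no count in any HxD library and 29 none in any WT library.

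**Figure D1:**
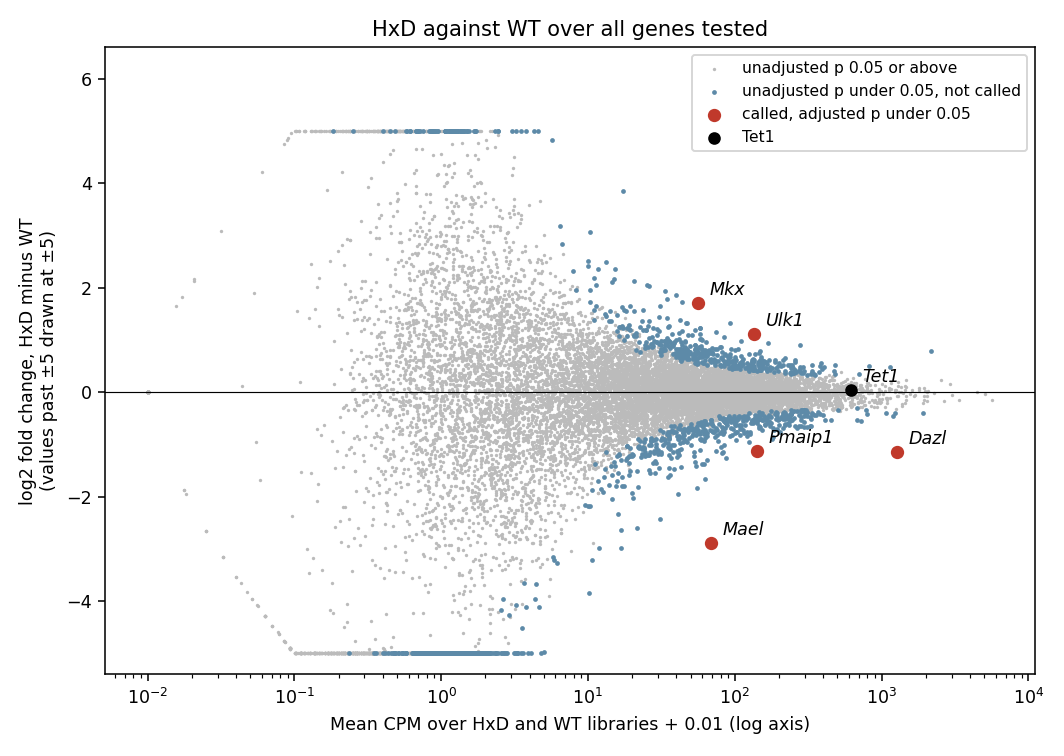
log2 fold change of HxD against WT (vertical axis) by mean CPM of the 6 libraries plus 0.01 (horizontal log axis) for the 14702 genes tested. Red points are the 5 called genes, blue points have an unadjusted p under 0.05, the black point is Tet1, and 1059 values past 5 in either direction are drawn at the edge.

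Mael, on chromosome 1, encodes maelstrom, a germ granule protein needed for piRNA-guided silencing of transposons. Its level was 20.2, 19.8 and 8.92 CPM in HxD replicates 1 to 3 and 173, 100.5 and 89.6 CPM in WT. Every HxD library lay far below every WT library, and the gene fell 7.396-fold (edgeR log2 fold change -2.89, SE 0.40, adjusted p = 0.000567). This call held in all 14 alternative analyses, with log2 fold changes between -3.07 and -2.54.

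Dazl, on chromosome 17, encodes an RNA-binding protein that controls translation in germ cells and lets them take on a gonad-stage fate. It was among the abundant transcripts, at 944, 858 and 576 CPM in HxD against 1753, 1605 and 1906 CPM in WT. The groups did not overlap, and Dazl fell 2.21-fold (edgeR log2 fold change -1.15, SE 0.19, adjusted p = 0.00935). The adjusted p was 0.0539 without HxD replicate 3, the library with the lowest Dazl level, and stayed under 0.05 in the other 13 analyses.

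Pmaip1, on chromosome 18, encodes Noxa, a BH3-only protein that promotes apoptosis and a known p53 target. Its levels were 85.0, 104 and 79.5 CPM in HxD and 232, 203 and 148 CPM in WT. The highest HxD library remained below the lowest WT library, and Pmaip1 fell 2.17-fold (edgeR log2 fold change -1.12, SE 0.21, adjusted p = 0.0258). The call on the Pmaip1 log2 fold change held in 10 of 14 analyses. The adjusted p rose to 0.14 without HxD replicate 3, 0.134 without WT replicate 1, 0.0696 with the stricter filter and 0.271 in a fit of HxD and WT alone.

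Ulk1, on chromosome 5, encodes the kinase that starts autophagosome formation. It stood at 153, 210.1 and 191 CPM in HxD and at 105, 87.8 and 63.1 CPM in WT. The lowest HxD value exceeded the highest WT value, and Ulk1 rose 2.16-fold (edgeR log2 fold change 1.11, SE 0.20, adjusted p = 0.0258). The call on the Ulk1 log2 fold change held in 9 of 14 analyses. Without HxD replicate 2, HxD replicate 3 or WT replicate 3 the adjusted p was 0.0604, 0.0539 and 0.173, and it was 0.101 with limma-voom and 0.327 in a fit of HxD and WT alone.

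Mkx, on chromosome 18, encodes the homeobox factor Mohawk, best known from tendon development. HxD libraries had 64.0, 103 and 90.1 CPM and WT libraries 19.15, 43.8 and 15.7 CPM. The groups did not overlap, and Mkx rose 3.26-fold (edgeR log2 fold change 1.71, SE 0.33, adjusted p = 0.0389). It was the least settled of the 5: the call on the Mkx log2 fold change held in 7 of 14 analyses and was lost without HxD replicate 2 (adjusted p = 0.0604), HxD replicate 3 (0.0539), WT replicate 1 (0.127) or WT replicate 3 (0.173), with limma-voom (0.182), with the stricter filter (0.0802) and in a fit of HxD and WT alone (0.436).

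**Figure D2:**
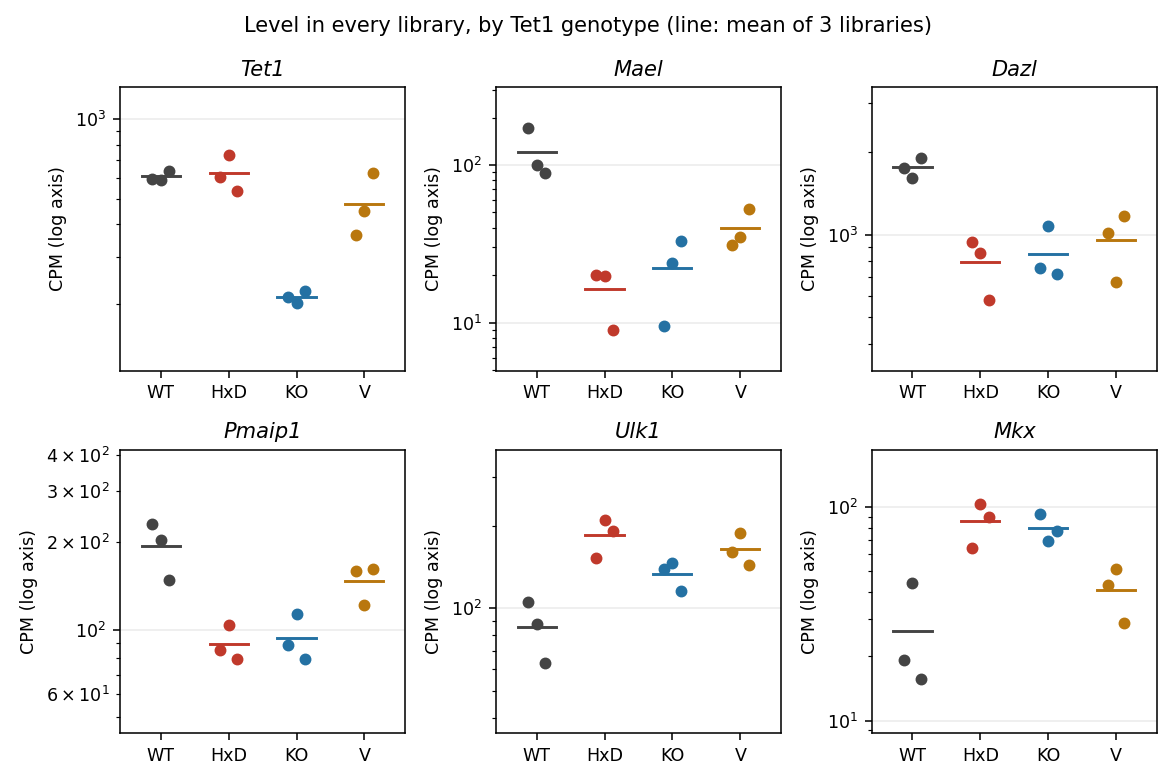
CPM on a log axis for Tet1 and the 5 called genes in each of the 3 libraries of the 4 genotypes, with a line at the mean. For Mael, Dazl, Pmaip1, Ulk1 and Mkx no HxD point overlaps a WT point, while for Tet1 they do.

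The promoters of Mael, Dazl and Sycp1, which stood lower in HxD, and of Ulk1, which stood higher, are shown because germline genes of this kind are controlled through methylation of CpG sites near the start. Each is the 250 bases before the start site on the gene's own strand, from RefSeq on GRCm38.p6, and capitals mark CACGTG, the E-box bound by MAX-type factors such as MGA, and GCGGGA or its reverse complement TCCCGC, the E2F6-type site. The regions are chr1:166238745-166238994 (minus strand), chr17:50293621-50293870 (minus), chr3:102936101-102936350 (minus) and chr5:110810082-110810331 (minus).
Mael: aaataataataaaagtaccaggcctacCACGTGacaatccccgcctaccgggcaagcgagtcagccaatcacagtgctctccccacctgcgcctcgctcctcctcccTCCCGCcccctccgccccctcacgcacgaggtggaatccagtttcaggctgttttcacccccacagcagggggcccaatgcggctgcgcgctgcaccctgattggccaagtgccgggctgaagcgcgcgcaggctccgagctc
Dazl: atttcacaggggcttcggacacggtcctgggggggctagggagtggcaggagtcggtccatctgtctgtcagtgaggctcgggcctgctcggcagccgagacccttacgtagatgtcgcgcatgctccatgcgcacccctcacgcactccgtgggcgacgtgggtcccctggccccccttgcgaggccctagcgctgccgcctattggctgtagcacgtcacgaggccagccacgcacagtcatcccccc
Sycp1: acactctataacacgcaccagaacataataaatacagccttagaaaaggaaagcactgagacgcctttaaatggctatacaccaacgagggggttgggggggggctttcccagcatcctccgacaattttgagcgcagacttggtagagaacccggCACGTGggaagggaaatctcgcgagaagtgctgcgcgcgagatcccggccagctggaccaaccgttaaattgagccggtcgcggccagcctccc
Ulk1: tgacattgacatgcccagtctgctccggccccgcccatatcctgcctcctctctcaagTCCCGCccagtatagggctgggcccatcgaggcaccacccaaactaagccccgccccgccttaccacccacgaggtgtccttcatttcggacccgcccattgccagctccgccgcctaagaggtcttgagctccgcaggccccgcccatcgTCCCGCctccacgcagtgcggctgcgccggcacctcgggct
The Mael window held 18 CpG sites, 1 CACGTG at position -223 from the start site and 1 TCCCGC at position -143. Dazl had 20 CpG sites and neither motif, and Sycp1 had 17 CpG sites and 1 CACGTG at position -94. Ulk1 had 20 CpG sites and 2 copies of TCCCGC, but no CACGTG. A match describes letters in this window and does not show that a factor bound there.

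The germline genes with methylation-sensitive promoters include both Mael and Dazl. Of 55 listed genes 49 had enough counts for the test, 2 were called lower (Mael and Dazl) and none higher. At an unadjusted p under 0.05, 19 of the 49 were lower and 0 higher, beside 4.82% and 3.42% of all genes. The median log2 fold change of the list was -0.49, against -0.02 over all genes tested, and 40 of the 49 values were negative. In 14 of the 49, every HxD library lay below every WT library, compared with 7.22% of all genes, and in 1, Ddx43, every HxD library lay above, compared with 5.26%. The count of lower members was 11 of 49 without WT replicate 1, where 3.4% of all genes were lower, and 25 of 52 without WT replicate 3.

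**Figure D3:**
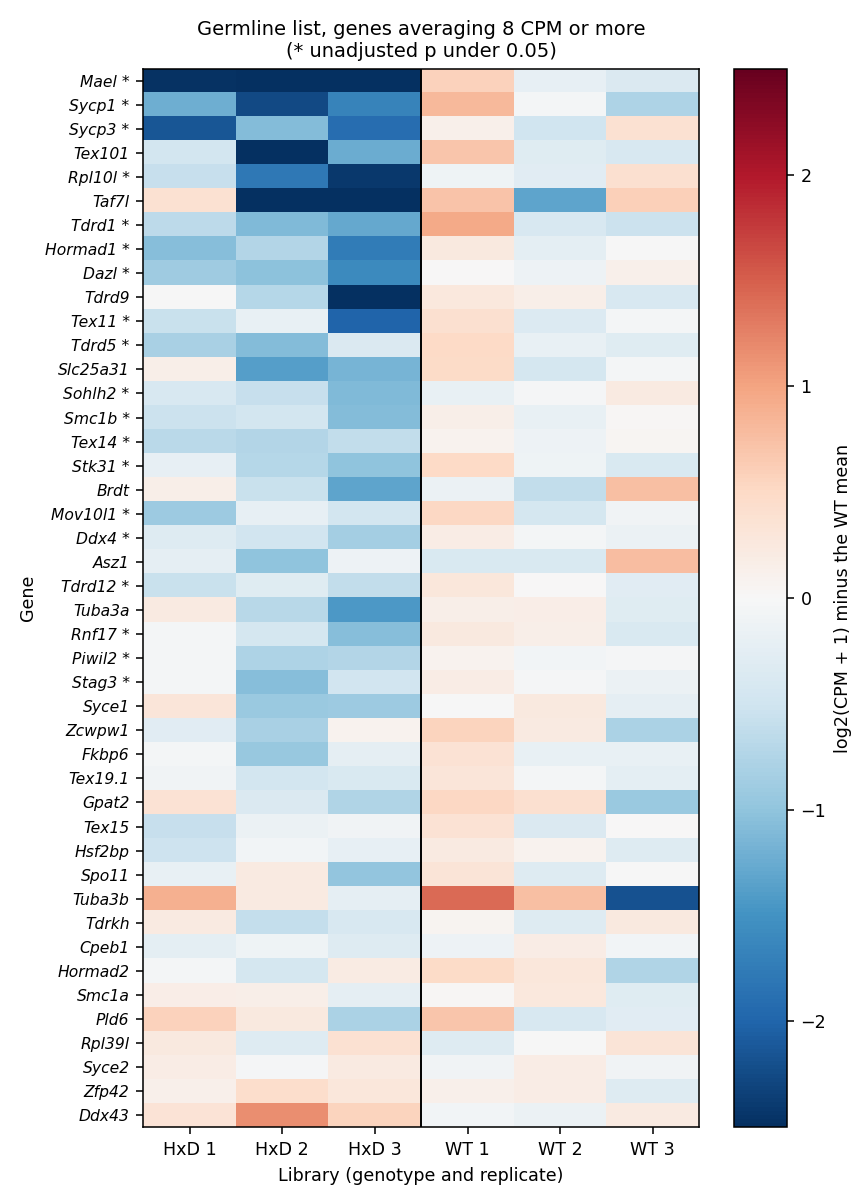
log2(CPM + 1) minus the WT mean, by colour, for the 44 tested genes of the germline list that averaged at least 8 CPM (rows) in the 3 HxD and 3 WT libraries (columns). Blue is lower and red higher than the WT mean, colours saturate at 2.5, and a star marks the 19 genes with an unadjusted p under 0.05, all of them lower in HxD.

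Within that list the genes differed in how far they moved. Tex14, which keeps the bridges between sister germ cells open, had the tightest values: 239, 229 and 249 CPM in HxD and 406, 346 and 391 CPM in WT. No HxD library reached any WT library (log2 fold change -0.67, SE 0.15), yet the edgeR adjusted p was 0.145. Ddx4, the helicase Vasa of germ granules, had 683, 613 and 473 CPM in HxD and 981, 834 and 772 CPM in WT (edgeR log2 fold change -0.55, SE 0.17, adjusted p = 0.377). In bulk RNA of this kind, fewer cells of a type and less RNA per cell cannot be told apart.

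In the piRNA pathway and germ granule list, 24 of 28 genes were tested, Mael was called, 11 had an unadjusted p under 0.05 in the lower direction (45.8%, beside 4.82% of all genes) and 0 in the higher (beside 3.42%). The median log2 fold change was -0.51. Tdrd1, a tudor scaffold of germ granules, had 63.4, 46.3 and 40.9 CPM in HxD and 194, 75.4 and 68.3 CPM in WT. WT replicate 1 was well above the rest, and no value overlapped (edgeR log2 fold change -1.16, SE 0.39, adjusted p = 0.415). Tdrd5, a tudor protein of the same granules, showed 70.7, 57.6 and 96.8 CPM against 176, 108 and 99.7 CPM (log2 fold change -0.77, SE 0.25). The count of 11 dropped to 6 of 25 without HxD replicate 3, where 3.25% of all genes were lower, and to 5 of 24 without WT replicate 1, where 3.4% were.

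Among 19 tested genes of the synaptonemal complex and cohesins, 6 were lower at an unadjusted p under 0.05 (31.6%, beside 4.82% of all genes). At that p 0 were higher, beside 3.42%, and none was called. Sycp1, the transverse filament of the complex that joins paired chromosomes, had 32.8, 15.4 and 23.9 CPM in HxD and 137, 75.5 and 45.2 CPM in WT. The spread within WT was wide, and the edgeR adjusted p was 0.132 (log2 fold change -1.84, SE 0.41), while DESeq2 gave 0.0036. Sycp2, a lateral element protein, had 34.1, 4.11 and 12.9 CPM against 71.8, 33.0 and 53.4 CPM, with HxD replicate 1 above WT replicate 2. Smc1b, a cohesin subunit specific to meiosis, had 225, 239 and 153 CPM against 363, 288 and 335 CPM (log2 fold change -0.68, SE 0.22). The ubiquitous cohesin genes Smc3 and Rad21, named after their values were seen, had log2 fold changes of -0.03 and 0.14. Stag2, also ubiquitous and named in the same way, was among the 6 lower members. Its log2 fold change was -0.52, and every HxD library lay below every WT library. The list median was -0.21. Without WT replicate 1 the count of lower members was 4.

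The meiotic entry and recombination list had 2 of 21 tested genes lower at an unadjusted p under 0.05 (9.52%, beside 4.82% of all genes). At that p 0 were higher, beside 3.42%, and the median was -0.27. Hormad1, which marks chromosome axes, stood at 26.3, 33.6 and 16.02 CPM in HxD and 66.9, 47.4 and 55.9 CPM in WT (edgeR log2 fold change -1.16, SE 0.38, adjusted p = 0.401). Tex11, an X-linked gene of crossover formation, overlapped between the groups (log2 fold change -0.77, SE 0.37).

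Of 25 tested spermatogonial genes, 7 had an unadjusted p under 0.05 and were lower, beside 4.82% of all genes, and 0 were higher, beside 3.42%. The median was -0.55, and -0.30 without WT replicate 1. Sohlh2, a transcription factor of early spermatogonia, had 197, 174 and 119.9 CPM in HxD and 229, 254 and 303 CPM in WT. All HxD values were below the WT values (edgeR log2 fold change -0.68, SE 0.21, adjusted p = 0.357). Uchl1, a deubiquitinating enzyme of spermatogonia, was even across HxD at 93.2, 90.4 and 97.2 CPM and varied more in WT at 174, 122 and 182 CPM (log2 fold change -0.77, SE 0.27). The count was 4 without HxD replicate 3 and 4 without WT replicate 1.

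Of the 21 RNA-binding regulators of germ cells, Dazl was called. At an unadjusted p under 0.05, 5 were lower (23.8%, beside 4.82% of all genes) and 0 higher (beside 3.42%). The median was -0.05, which moved to -0.29 without HxD replicate 2 and to 0.005 without HxD replicate 1. These lists share members: Mael, Dazl and Ddx4 each stand in more than 1 of them, so their counts are not separate evidence. All lists were chosen with earlier results of these libraries known.

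Of 28 tested pluripotency factors, 5 had an unadjusted p under 0.05 in the higher direction (17.9%, beside 3.42% of all genes) and 1 in the lower (3.57%, beside 4.82%), and no member was called. The median log2 fold change was 0.18, and 0.10 without WT replicate 1 or WT replicate 3. Pou5f1, which encodes OCT4, had 371, 526 and 494 CPM in HxD and 307, 299 and 341 CPM in WT. Each HxD library exceeded each WT library (edgeR log2 fold change 0.55, SE 0.17, adjusted p = 0.345). The sort used an Oct4-GFP reporter, and the part of the gate in the Pou5f1 level was not tested. Dppa5a, a pluripotency-associated RNA-binding protein, had 512, 542 and 646 CPM against 349, 414 and 421 CPM (log2 fold change 0.52, SE 0.16), and Klf2, a naive pluripotency factor, had 34.2, 87.3 and 59.1 CPM against 25.7, 24.7 and 30.1 CPM (log2 fold change 1.17, SE 0.36).

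In the list of germ cell specification genes, the unadjusted p was under 0.05 for 4 higher and 2 lower genes of 20. These are 20% and 10%, beside 3.42% and 4.82% of all genes. The 4 higher genes were Tfap2c, Ifitm3, Rhox6 and Rhox9. Rhox6 and Rhox9 also stand in the Rhox list given next, so the counts of these lists are not separate evidence. Tfap2c, a transcription factor that sets up the germ line, had 114, 136 and 155 CPM in HxD against 48.2, 85.0 and 96.3 CPM in WT, without overlap (edgeR log2 fold change 0.82, SE 0.22, adjusted p = 0.256).

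The X-linked Rhox homeobox genes gave 3 higher of 9 tested at an unadjusted p under 0.05 (33.3%, beside 3.42% of all genes). None was lower at that p, beside 4.82%. Rhox5 had 316, 362 and 410.3 CPM in HxD and 154, 232 and 198 CPM in WT. The sets did not overlap (edgeR log2 fold change 0.90, SE 0.19, adjusted p = 0.107). Rhox9 had 129, 107 and 161 CPM against 27.2, 75.8 and 55.1 CPM (edgeR log2 fold change 1.33, SE 0.31, adjusted p = 0.145). Rhox6 had 59.1, 51.3 and 77.9 CPM against 18.04, 31.7 and 2.15 CPM, the last in WT replicate 3 (edgeR log2 fold change 1.86, SE 0.49, adjusted p = 0.256). The other 6 tested members averaged at most 11.5 CPM in either group. Copies in this family are similar in sequence, and how reads shared between them were counted is not given in the sources used here.

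**Figure D4:**
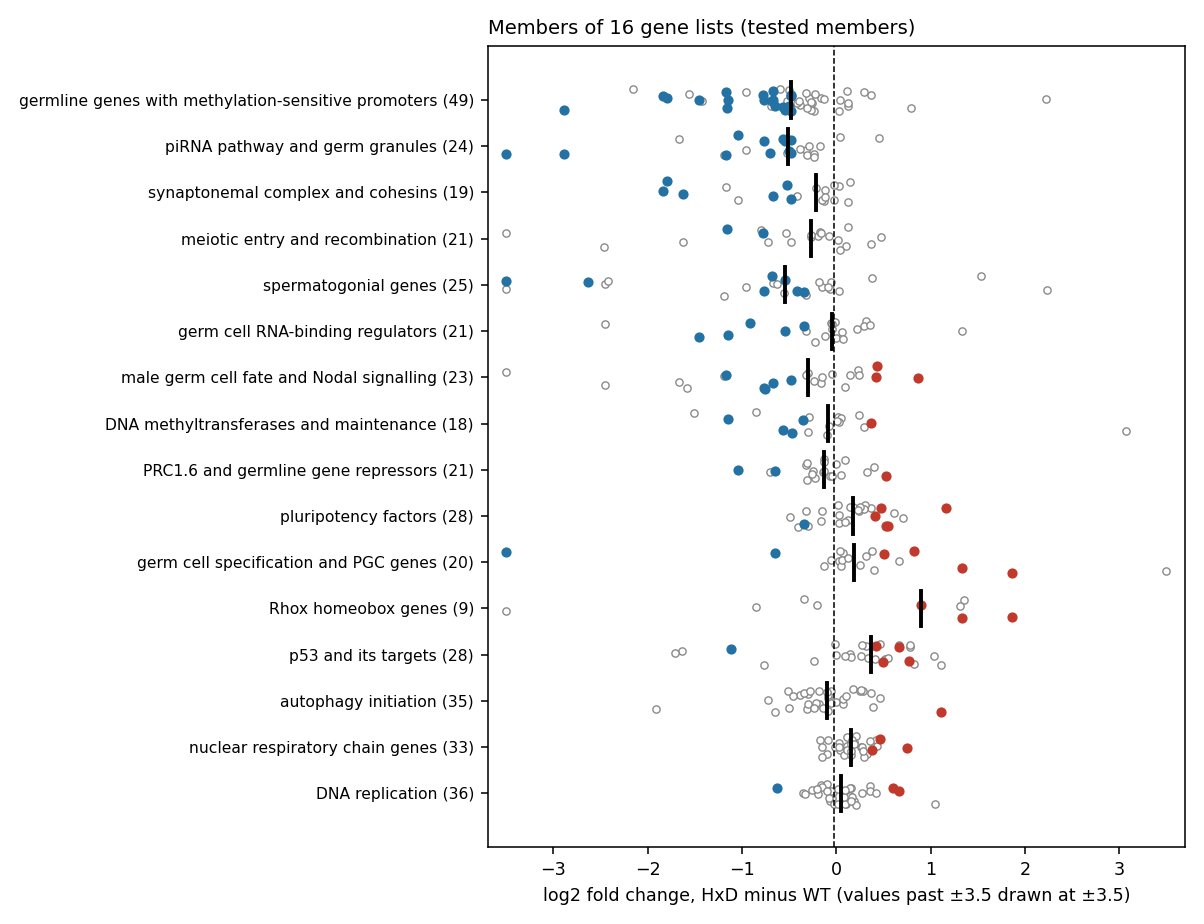
log2 fold change of HxD against WT for every tested member of 16 gene lists (rows, with the number tested), filled blue or red where the unadjusted p is under 0.05 and the member is lower or higher. Black bars are list medians, the dashed line is the median of all genes (-0.02), and values past 3.5 in either direction are drawn at the edge.

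Genes that write, keep or remove DNA methylation come next. Of 18 methyltransferase and maintenance genes, 4 had an unadjusted p under 0.05 in the lower direction (22.2%, beside 4.82% of all genes). In the higher direction 1 did (5.56%, beside 3.42%), and none was called. Uhrf1, which recognises half-methylated DNA after replication and brings in DNMT1, had 71.4, 41.3 and 42.6 CPM in HxD and 103, 117 and 124 CPM in WT. No HxD library reached a WT library (edgeR log2 fold change -1.15, SE 0.28, adjusted p = 0.193, DESeq2 adjusted p = 0.0132). Dnmt3a, a de novo methyltransferase, overlapped at 128, 93.4 and 128 CPM against 196, 159 and 128 CPM (log2 fold change -0.47, SE 0.20). The count of lower members was 2 without HxD replicate 2 and 2 without WT replicate 1.

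Tet2, the second TET gene, was low throughout, with 12.4, 12.3 and 7.75 CPM in HxD and 29.2, 18.3 and 30.6 CPM in WT. The values did not overlap (edgeR log2 fold change -1.26, SE 0.53, adjusted p = 0.562). Across the 21 TET and base-excision genes, 1 was lower at an unadjusted p under 0.05 (4.76%, beside 4.82% of all genes). Another 2 were higher (9.52%, beside 3.42%). The list median was 0.09, which turned to -0.002 without WT replicate 3.

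The next list held 21 tested genes of PRC1.6, the Polycomb complex that represses germline genes, and of other germline gene repressors. At an unadjusted p under 0.05, 2 were lower (9.52%, beside 4.82% of all genes) and 1 higher (4.76%, beside 3.42%). Mga, the scaffold of PRC1.6, had 199, 251 and 152 CPM in HxD and 318, 326 and 299 CPM in WT. All HxD libraries were below WT (edgeR log2 fold change -0.65, SE 0.19, adjusted p = 0.331). Of 11 tested PRC2 genes 1, Rbbp7, was lower at an unadjusted p under 0.05 (9.09%, beside 4.82% of all genes). This count was 0 without HxD replicate 2, HxD replicate 3, WT replicate 1 or WT replicate 2. The PRC2 median of -0.05 was positive in 5 of 14 alternative analyses.

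Ulk1 and Pmaip1 were the called genes of the autophagy and p53 lists, with no other member called. In the autophagy initiation list, Ulk1 was the single gene of 35 with an unadjusted p under 0.05. That is 2.86% higher, beside 3.42% of all genes, and 0% lower, beside 4.82%. Of the 35 values 24 were negative (median -0.10). The Ulk1 paralogue Ulk2 was named after its values were seen. It had 22.7, 38.3 and 10.3 CPM in HxD and 42.6, 53.8 and 22.1 CPM in WT, with overlap. In the list of p53 and its targets, Pmaip1 was the single gene of 28 lower at an unadjusted p under 0.05 (3.57%, beside 4.82% of all genes). In the higher direction 4 passed that p (14.3%, beside 3.42%). Over the list 21 values were positive, 7 were negative and the median was 0.37. Tigar, a p53 target in sugar metabolism named after its values were seen, had 109, 133 and 89.7 CPM in HxD and 57.8, 71.9 and 79.4 CPM in WT (edgeR log2 fold change 0.67, SE 0.22, adjusted p = 0.415). The list median was 0.09 without HxD replicate 2. Among 16 tested BCL2 family genes, Pmaip1 was called. At an unadjusted p under 0.05, 2 in all were lower (12.5%, beside 4.82% of all genes). At that p 1, Bad, was higher (6.25%, beside 3.42%).

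G1 arrest is the state male germ cells enter near this age. Of 27 tested genes in its list, 2 were lower at an unadjusted p under 0.05 (7.41%, beside 4.82% of all genes). Another 3 were higher at that p (11.1%, beside 3.42%), and the median was near 0. Rb1, the retinoblastoma gene needed for G1 arrest, had 78.2, 64.7 and 56.7 CPM in HxD and 130.1, 111 and 116 CPM in WT. The groups were apart (edgeR log2 fold change -0.84, SE 0.23, adjusted p = 0.256, DESeq2 adjusted p = 0.00429). Ccne1, the cyclin E1 gene of S-phase entry, had 111, 106 and 105 CPM against 44.8, 91.7 and 56.7 CPM (log2 fold change 0.74, SE 0.26). Cdkn2a, a gene of cell cycle inhibitors, had 50.2, 49.6 and 39.0 CPM against 24.9, 24.5 and 20.9 CPM (log2 fold change 0.98, SE 0.39).

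Outside the lists, the smallest p-values among genes that were not called belonged to Sgk3 and Smurf1 on the lower side. Sgk3, a kinase of the PI3K pathway, had 29.7, 33.8 and 35.7 CPM in HxD and 83.0, 64.4 and 111 CPM in WT. Smurf1, a ubiquitin ligase that restrains BMP signalling, had 38.9, 36.3 and 26.9 CPM against 109.9, 93.8 and 62.4 CPM. Each had no overlap, a log2 fold change of -1.38 (SE 0.29) and an edgeR adjusted p of 0.084. Med12, an X-linked subunit of Mediator, had 55.3, 43.3 and 42.5 CPM in HxD and 104, 120.4 and 84.4 CPM in WT (edgeR log2 fold change -1.13, SE 0.25, adjusted p = 0.132).

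Lrrc34, which encodes a leucine-rich repeat protein, stood nearest to the threshold on the higher side. It had 18.9, 41.3 and 40.7 CPM in HxD and 7.37, 11.3 and 4.34 CPM in WT (edgeR log2 fold change 2.13, SE 0.45, adjusted p = 0.0921). Hmgn5, an X-linked nucleosome-binding protein, had 40.9, 53.7 and 65.1 CPM against 3.56, 15.6 and 22.2 CPM (log2 fold change 1.95, SE 0.44). Notch1, a signalling receptor, was even across HxD at 38.6, 42.4 and 40.1 CPM and low in WT at 9.12, 19.01 and 1.10 CPM. In all of these genes the HxD and WT libraries stood apart, yet the edgeR adjusted p of Notch1 was 0.249. Mmrn2, a matrix glycoprotein of blood vessels, had 23.5, 27.8 and 45.6 CPM in HxD, 4.01, 1.96 and 0.745 CPM in WT, and means of 2.497 CPM in KO and 3.68 CPM in V. That is 14.4-fold higher in HxD than WT (edgeR log2 fold change 3.85, SE 0.98, adjusted p = 0.212). Summed endothelial markers overlapped between HxD and WT, but Pecam1 alone made up 154.9 to 258 CPM of the sum. Tie1 and Emcn were at 0 in all 6 libraries. Eng had 10.2, 18.3 and 16.7 CPM in HxD against 7.27, 10.8 and 7.14 CPM in WT, with overlap. Tek went the other way, at 0.137, 1.20 and 0 CPM in HxD against 4.51, 2.05 and 7.71 CPM in WT. Of the 10 tested endothelial markers 5 were lower and 5 higher in HxD (median log2 fold change -0.48). In 2 every HxD library lay below every WT library, beside 7.22% of all genes, and in 0 above, beside 5.26%. The part of such cells in the Mmrn2 difference was not tested.

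Some genes had no count in any HxD library. Borcs6, a subunit of the BORC complex that positions lysosomes, had counts of 0 in the HxD libraries and 135, 129 and 363 in WT, at least 220.0-fold lower when HxD is set at 3 counts over the group (edgeR adjusted p = 0.145). Map3k13, a kinase of JNK signalling, had 0 in HxD and 93, 126 and 208 in WT, at least 150.0-fold lower (edgeR adjusted p = 0.193). Over all tested genes 916 had no count in any HxD library and 347 none in any WT library, with genes at 0 in both counted each time, and WT replicates 1 and 2 detected more genes than any HxD library. The part of detection in these results was not tested.

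Promoter windows of all tested protein-coding genes were searched for the same motifs. Of 625 protein-coding genes lower at an unadjusted p under 0.05, 506 (81.0%) had a RefSeq window, and 66 of them (13.0%) held CACGTG, compared with 895 of 10516 tested genes (8.51%). Turned round, 7.37% of the genes with CACGTG and 4.57% of those without were lower. The lowered shares became 2.79% and 1.15% at an unadjusted p under 0.01. With every gene of the lists left out, 53 of 829 genes with CACGTG (6.39%) and 410 of 9186 without (4.46%) were lower. GCGGGA or TCCCGC stood in 31.6% of lowered genes and 31.0% of all, and a CpG ratio (observed over expected) above 0.75 in 45.1% and 46.9%. These shares carry no test, and raised genes missed the minimum share with a window set for such checks (79.0% had one), so none is given for them.

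In the germline list, 43 of 49 genes had a window and 16 of those held CACGTG, beside 8.51% of all tested genes with a window. A CpG ratio above 0.75 was found in 17 of the 43, beside 46.9% of all, and GCGGGA or TCCCGC in 15, beside 31.0%. Among the 16 with CACGTG were Mael, Ddx4, Tdrd1, Sycp1, Sycp3, Hormad1, Mov10l1, Stk31 and Stag3, lower at an unadjusted p under 0.05. Taf7l, Brdt, Slc25a31, Tex12, Fkbp6, Tdrd9 and Pld6 also held it but did not pass that p. Dazl, Tex14, Smc1b, Sohlh2, Rpl10l, Tdrd5 and Tdrd12 were lower at that p without CACGTG in the window. Transcript length was also compared, over all protein-coding genes. The longest annotated transcript had a median of 4022 bases in lowered genes, 3436 in all genes and 3033 in raised genes. In the lowered genes of the germline list it ran from 1023 bases for Rpl10l to 5264 for Rnf17, with 1691 for Mael. Rpl10l, Sycp3, Hormad1, Mael, Sohlh2, Dazl, Ddx4, Tex11 and Stk31 lay below the median of all genes. The other lowered members of that list lay above it. Among genes averaging at least 8 CPM, the median log2 fold change was 0.10 in those with transcripts up to 2366 bases and -0.07 in those from 5006 bases. The part of length in the counts per list was not tested. The X chromosome held 5.16% of lowered, 3.56% of raised and 3.62% of all genes with a chromosome.

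HxD was also tested against KO in the same fit. Which part of Tet1 the KO allele removes is not in the labels, and its transcript was still counted there, so whether KO cells lack the protein was not tested. Tet1 itself was the single call in edgeR (0.0068% of 14702 genes), higher in HxD with a log2 fold change of 1.56 (SE 0.18, edgeR adjusted p = 7.87e-06). At an unadjusted p under 0.05, 686 genes (4.67%) differed in either direction, against 735 that chance alone gives, and DESeq2 called 87. Mael had 9.54, 23.9 and 32.9 CPM in KO, which overlaps HxD, and the difference was -0.44 on the log2 scale (SE 0.37, edgeR adjusted p = 1). Dazl had 757, 1071 and 720.3 CPM in KO (difference -0.10, SE 0.19). For Pmaip1 and Mkx the differences were -0.07 (SE 0.21) and 0.10 (SE 0.32), while for Ulk1, at 139, 147 and 116 CPM in KO, it was 0.46 (SE 0.20, edgeR adjusted p = 0.884). In the germline list 4 of 49 genes had an unadjusted p under 0.05 between HxD and KO, and the median difference was 0.02.

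Other genes had the smallest p-values between HxD and KO. Epas1, a hypoxia-inducible factor, had 21.8, 18.9 and 31.9 CPM in HxD and 1.41, 6.16 and 6.72 CPM in KO, beside 37.1, 51.6 and 42.4 CPM in WT. HxD lay between the other groups without overlapping either (HxD minus KO 2.34 on the log2 scale, SE 0.49, edgeR adjusted p = 0.213). Uchl1 showed the same order, with 52.2, 47.0 and 27.5 CPM in KO (HxD minus KO 1.15, SE 0.27, edgeR adjusted p = 0.489). Mcam, a cell adhesion molecule, had 43.7, 107 and 55.4 CPM in HxD, 15.2, 30.8 and 19.13 CPM in KO and 49.3, 54.7 and 41.4 CPM in WT. The HxD values overlapped those of WT, with 2 libraries above all of WT, and lay above KO (HxD minus KO 1.66, SE 0.33, edgeR adjusted p = 0.173). In the other direction, Mios, a regulator of mTORC1, had 52.7, 47.8 and 23.9 CPM in HxD and 98.5, 101 and 115 CPM in KO (difference -1.34, SE 0.29, edgeR adjusted p = 0.213). Haus4, a microtubule-branching subunit, had 130.3, 99.9 and 59.8 CPM in HxD, and 206, 204 and 200.03 CPM in KO.

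Against V, edgeR called no gene (smallest adjusted p = 0.514), 745 genes (5.07%) had an unadjusted p under 0.05 in either direction, and DESeq2 called 92. Mael had 31.0, 34.9 and 52.9 CPM in V, above all 3 HxD libraries and below all WT libraries (HxD minus V -1.27, SE 0.38, edgeR adjusted p = 0.861). Pmaip1 was also in between, at 159, 122 and 162 CPM in V (HxD minus V -0.72, SE 0.21), though WT and V overlapped. Mkx had 42.9, 51.0 and 28.5 CPM in V (HxD minus V 1.07, SE 0.32). Dazl and Ulk1 overlapped between HxD and V, with differences of -0.27 (SE 0.19) and 0.17 (SE 0.20). Med12 and Haus4 were among the genes with the smallest p: Med12 had 73.2, 82.4 and 137 CPM in V (HxD minus V -1.05, SE 0.25, edgeR adjusted p = 0.653), and Haus4 had 213, 209 and 192 CPM. The germline list had 2 of 49 genes with an unadjusted p under 0.05 and a median difference of -0.12. Each comparison with WT uses the same 3 WT libraries, so the values of HxD, KO and V against WT, drawn side by side, are not independent.

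**Figure D5:**
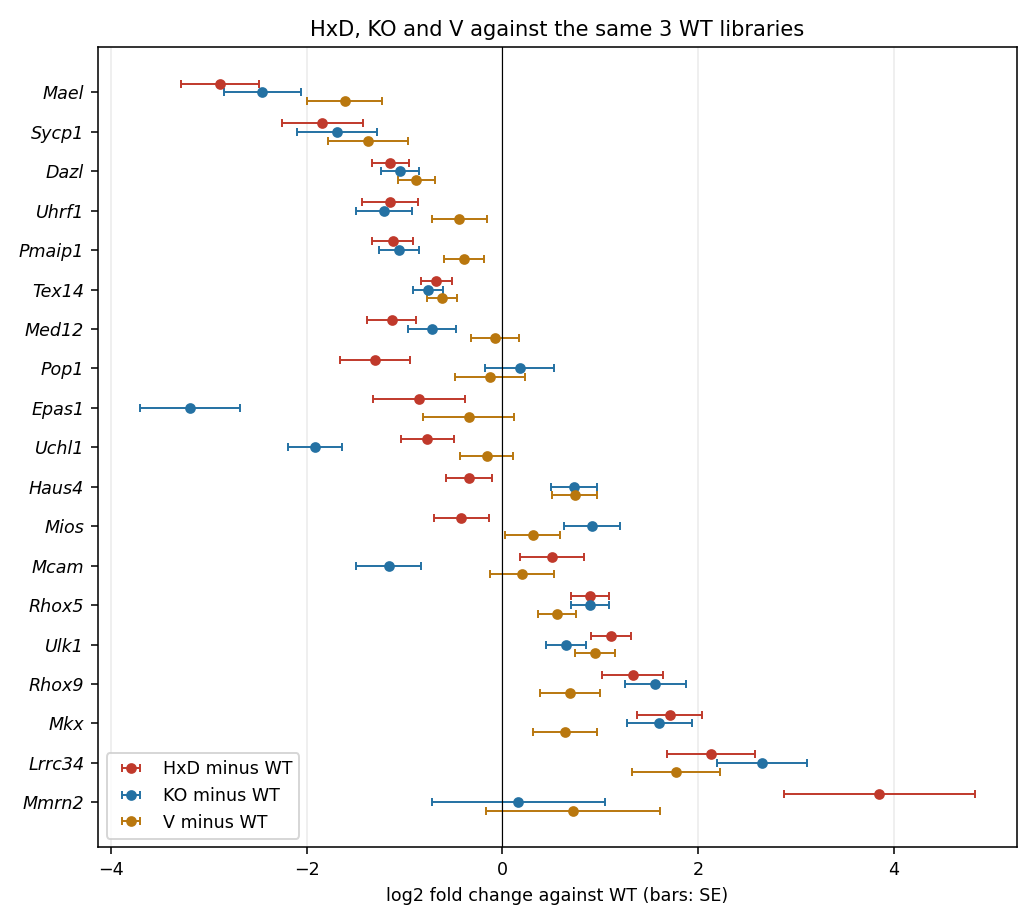
log2 fold change against WT with SE bars for 19 genes in HxD, KO and V, all set against the same 3 WT libraries. Mael, Dazl and Tex14 lie left of 0 in all 3 mutants, Epas1 and Uchl1 lie furthest left in KO, and Mmrn2 lies right of 0 by 3.85 in HxD.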

How the data were processed

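RNA-seq libraries of sorted male germ cells were compared, 3 per genotype in 4 genotypes, with groups taken from the labels. The values the authors deposited are raw counts per gene symbol for 35976 symbols. The submitters' processing notes name STAR 2.7.10b, featureCounts 2.0.3, Trim Galore 0.6.7, FastQC and SAMtools 1.9. The builds, mm10 and GRCm39, stand there without a stated role. Neither annotation nor strand setting was found (not given in the sources used here), so overlapping and antisense genes cannot be told apart. A single column whose name matches no sample was not used.

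Counts were fitted in R 4.3.3 with edgeR 4.0.16 (filterByExpr, TMM, quasi-likelihood test, genotype as the sole term, all 12 libraries, Benjamini-Hochberg adjustment over 14702 genes, threshold 0.05). DESeq2 1.42.0, limma-voom (limma 3.58.1), other scalings and filters, a fit of HxD and WT alone, a replicate block and leaving out each library were alternatives. The analysis was tested on simulated data. The range of library totals is in the report, and depth limits the precision for genes with few counts. Named genes were the called ones, the 15 lowest p-values per direction for HxD against WT (4 for the other comparisons) and the leading members of each list. Lists held 813 symbols, of which 784 were in the table. The members and lists were chosen with earlier results of these data known. Chromosomes and promoters came from RefSeq (GRCm38.p6), and transcript lengths from GENCODE, which may not be the authors' annotation.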

Additional observations from a re-analysis of the deposited data

How the results depend on the processing

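Counts of genes past the adjusted threshold moved widely with the tool and filter, and the cause was not tested. Higher in HxD than WT were 2 genes, but 85 with DESeq2, 0 with limma-voom, 33 with no filter, 1 with a stricter filter and 0 in a fit of HxD and WT alone. Lower were 3, but 114 with DESeq2 and 34 with no filter. At an unadjusted p under 0.05, 503 were higher and 708 lower, against 756 and 917 with DESeq2, 463 and 955 with limma-voom, 372 and 467 with HxD and WT alone, and 464 and 417 with the stricter filter, which tested fewer genes and turned the excess round. Against KO, 1 was higher (33 with DESeq2, 4 with no filter) and 0 lower (54 and 4). Against V, 0 were higher (23 and 1) and 0 lower (69 and 4).

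Leaving out 1 library at a time gave 0 to 22 higher and 1 to 34 lower against WT (unadjusted 380 to 600 and 517 to 904), 1 to 3 and 0 to 11 against KO, and 0 to 3 and 0 to 11 against V. With the replicate number as a block, the counts were 23 higher and 22 lower against WT, 4 and 4 against KO, and 1 and 1 against V. Deviations of same-numbered HxD and WT libraries correlated at 0.137, 0.00377 and 0.00267, so the numbers were not taken as pairs.

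Of 91 named genes, 89 kept their sign in every alternative. The exceptions were the Tet1 log2 fold change (-0.0914 without HxD replicate 2, range -0.09 to 0.15) and the ND4 log2 fold change (0.0657 without HxD replicate 1, range -0.63 to 0.07).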

Other observations

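Several gene groups with other roles were counted at an unadjusted p under 0.05. Over all genes tested 4.82% were lower and 3.42% higher at that p. Of 33 tested nuclear genes of the respiratory chain, 3 were higher (9.09%) and 0 lower in HxD. Of their values 27 were positive, and the median log2 fold change was 0.16. Cox6c, a subunit of cytochrome oxidase, had 131, 103 and 172 CPM in HxD and 92.0, 100.1 and 101 CPM in WT (log2 fold change 0.47, edgeR adjusted p = 0.582). The count of 3 dropped to 0 without HxD replicate 3. The 8 tested mitochondrially encoded genes had none past the threshold and a median of -0.17. Without HxD replicate 3, 3 of the 8 were lower and the median was -0.48, and without HxD replicate 1 it was 0.06.

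Imprinted genes had no call in edgeR, while DESeq2 called 1 maternally expressed gene lower. At an unadjusted p under 0.05, 0 of 23 paternally expressed genes differed, and 2 of 26 maternally expressed genes were lower (7.69%). The medians were -0.28 and -0.29. Gatm had the smallest p of the maternally expressed genes (edgeR adjusted p = 0.256), with every HxD library below every WT library. The paternal median was 0.05 without WT replicate 1 and -0.01 without WT replicate 3, and the maternal one was -0.49 without HxD replicate 1. Asb4, a maternally expressed gene, had 26.2, 7.19 and 15.2 CPM in HxD and 25.2, 60.3 and 39.9 CPM in WT, with overlap (log2 fold change -1.37, edgeR adjusted p = 0.401). DNA replication genes gave 1 lower (2.78%) and 2 higher (5.56%) of 36, and mitosis genes 1 lower and 1 higher of 30 (3.33% each). Glycolysis genes gave 2 lower and 2 higher of 28 (7.14% each), and lysosomal genes 0 lower and 3 higher (10.3%) of 29. Among the lysosomal genes Grn, the progranulin gene, had 324, 358 and 289 CPM in HxD and 210.2, 261 and 226 CPM in WT, without overlap (log2 fold change 0.48, edgeR adjusted p = 0.439).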
